A study of Mus musculus with 203 samples.

Results

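The secreted and membrane proteins of the Wnt pathway were followed through airway and parenchyma RNA-seq of mice with experimental asthma, experimental chronic obstructive pulmonary disease (COPD), both, or neither. Genes were taken by symbol: every Wnt ligand, every Frizzled receptor (Fzd), the R-spondins (Rspo) with their receptors Lgr4, Lgr5 and Lgr6, the secreted inhibitors of the Sfrp, Dkk, Frzb, Wif1 and Notum type, and the readouts Axin2 and Lef1. This gave 49 of the 43346 identifiers in the count table, of which 19 were ligands, 10 Frizzled receptors, 4 R-spondins, 3 R-spondin receptors, 11 inhibitors and 2 target or effector genes.

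Female Balb/C mice, labelled 18 to 20 weeks old in all groups, received house dust mite extract (HDM) or phosphate-buffered saline (PBS) into the nose on 5 days per week for 3 weeks. One set was studied then. Its PBS mice gave 11 airway and 12 parenchyma libraries, and its HDM mice gave 10 of each tissue. In the other set dosing went on 3 times per week up to week 11, alongside room air (AIR) or cigarette smoke (CS, 2 times per day on 5 days per week for 8 weeks), with or without dexamethasone (DEX), a glucocorticoid, during week 11. That set had 8 exposures, named PBS AIR, PBS AIR DEX, HDM AIR, HDM AIR DEX, PBS CS, PBS CS DEX, HDM CS and HDM CS DEX, with 10 libraries of each tissue, which brought the number of groups to 20. Airways and parenchyma had been parted by blunt dissection, and the library codes do not say which airway and parenchyma came from 1 mouse.

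Wnt ligands are lipid-modified secreted proteins that bind Frizzled receptors together with the co-receptors Lrp5 and Lrp6. In the canonical branch this spares beta-catenin from breakdown, and beta-catenin then works with TCF/LEF factors to switch on genes such as Axin2, Lef1, Notum and Lgr5. R-spondins bound to Lgr receptors keep Frizzled at the cell surface and so strengthen the signal. Sfrp proteins, Frzb and Wif1 bind Wnt ligands, Dkk1, Dkk2 and Dkk4 act on Lrp5 and Lrp6, and Notum removes the ligand's lipid. In the lung the pathway is known for its roles in branching, in the alveolar type II cell niche and in airway smooth muscle and epithelial repair.

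Promoters are shown for 3 members that changed with HDM and are described below, namely the ligands Wnt2 and Wnt11 and the R-spondin Rspo4. RefSeq's promoter table, on GRCm38.p6, held 33 of the 49 members. Each sequence runs 5′ to 3′ from 250 bases before the start site to 50 from it on. Capitals mark matches on either strand. For TCF/LEF the letters searched were CTTTGAA and also CTTTGAT, for a glucocorticoid receptor half-site pair ACANNNTGT, for an E-box CACGTG, and for the box bound by the TATA-binding protein TATAAA. Wnt2 lies at chr6:18030396-18030695 on the minus strand, Rspo4 at chr2:151842677-151842976 on the plus strand and Wnt11 at chr7:98834862-98835161 on the plus strand.
Wnt2: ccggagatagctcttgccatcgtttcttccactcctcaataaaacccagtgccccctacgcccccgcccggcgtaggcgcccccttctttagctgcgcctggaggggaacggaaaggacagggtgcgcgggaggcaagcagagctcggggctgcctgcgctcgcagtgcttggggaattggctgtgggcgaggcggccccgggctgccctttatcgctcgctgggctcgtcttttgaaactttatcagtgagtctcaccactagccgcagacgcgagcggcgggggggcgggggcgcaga
Rspo4: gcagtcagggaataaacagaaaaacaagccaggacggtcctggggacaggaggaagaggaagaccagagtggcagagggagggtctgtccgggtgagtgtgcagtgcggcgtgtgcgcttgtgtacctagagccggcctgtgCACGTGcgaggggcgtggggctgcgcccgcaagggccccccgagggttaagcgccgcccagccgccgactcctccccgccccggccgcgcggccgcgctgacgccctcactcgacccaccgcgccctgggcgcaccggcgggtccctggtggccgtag
Wnt11: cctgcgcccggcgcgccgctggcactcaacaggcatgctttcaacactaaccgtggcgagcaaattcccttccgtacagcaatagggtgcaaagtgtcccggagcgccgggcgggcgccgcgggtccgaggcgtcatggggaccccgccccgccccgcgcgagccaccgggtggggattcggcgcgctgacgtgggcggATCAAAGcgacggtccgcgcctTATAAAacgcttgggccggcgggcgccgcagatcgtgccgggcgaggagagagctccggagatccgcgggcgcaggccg
The Wnt2 window held none of these letters, and the Rspo4 window held the E-box at -108. The Wnt11 window shown held a TCF/LEF match at -51 and a TATA box at -29. Positions are counted from the start site. Another Wnt11 window, at chr7:98838595-98838894 on the plus strand, held none of these letters, and neither did the Axin2 window. Of all 32851 promoters in the table, 8.65% held the TCF/LEF letters, 6.85% the glucocorticoid receptor letters, 7.15% the E-box and 13.6% the TATA box. Of the 39 promoters of members, 3, 2, 5 and 6 did. A match is a description of the letters and not a bound site.

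Total counts ran from 13003087 to 40240680 per library, with a median of 28090612. Levels are given as CPM, in which counts are scaled to a common library total, with TMM scaling over all libraries. Of the 49 members, 41 passed the filter on low counts at 3 weeks and 43 at 11 weeks. Dkk1, Dkk4, Wnt1, Wnt3, Wnt8a and Wnt8b passed in neither, and Fzd9 and Wnt10a passed only at 11 weeks. A gene is called here at an adjusted p under 0.05 in limma-voom with at least a 2-fold change, and "rose" or "fell" is used for an adjusted p under 0.05. In bulk tissue, fewer cells of a type and less RNA per cell cannot be told apart.

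Of all libraries, 8 stood apart from their group, 6 labelled airway and 2 labelled parenchyma, and 2 of them were 3 week HDM airway libraries. The library X109, labelled 11 week HDM AIR airway, had summed levels of 41.9 CPM for cardiac muscle markers and 215 CPM for airway smooth muscle markers, the lowest of its group, where the group medians were 288 and 469. Its marker score lay nearer to the parenchyma. The library X90, labelled 11 week HDM AIR parenchyma, had a score nearer to the airway, with 29186 CPM for club cell and 872 CPM for ciliated cell markers against group medians of 15144 and 427. Its cardiac and airway smooth muscle markers, at 41.1 and 211 CPM, were at the parenchyma's level. With X109 and X90 left out, the number of members called changed by no more than 1.5 times in every comparison refitted. Only comparisons with an HDM AIR group hold either library, and the others could change only through the shared fit. Comparisons within 3 weeks were not refitted. Calls of single genes were followed only for the members described in depth and for Axin2, Lef1, Notum and Lgr5. Those of them that lost a call are named below. The library X70, labelled 11 week HDM AIR parenchyma, held 829 CPM of Acta1, a skeletal muscle gene.

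In 3 week PBS mice the most abundant member per kilobase of exon was Dkk3, which was counted with the inhibitors by its symbol. Its medians were 20.2 CPM per kilobase in airway and 16.3 in parenchyma. Fzd1 followed in airway (9.35 CPM per kilobase) and Fzd7 in parenchyma (10.3 CPM per kilobase). At the other end, Dkk4, Wnt1, Wnt8a and Wnt8b had a median of 0 CPM in both tissues. The plot of levels per length in 3 week PBS mice shows that the receptors lay close together between the tissues, apart from Fzd9 and Fzd10.

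**Figure D1:**
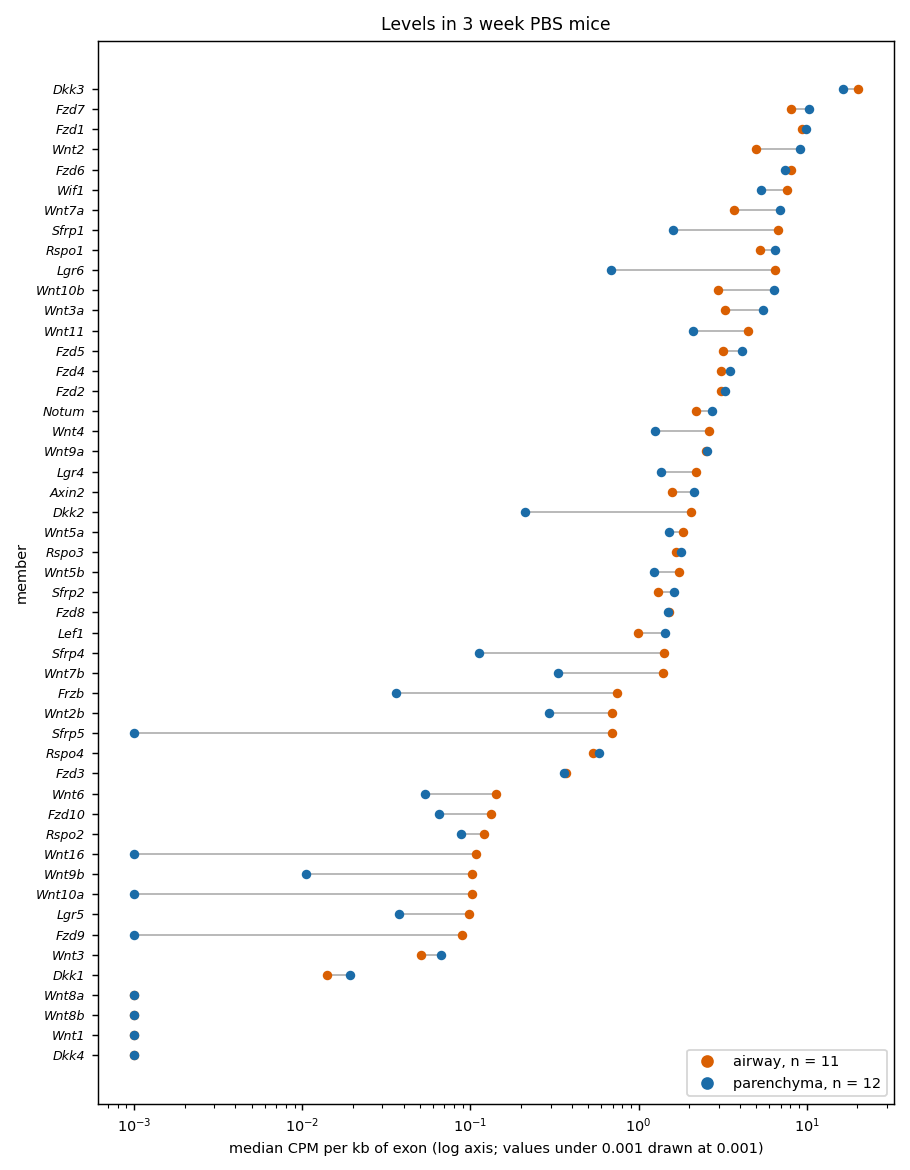
Median level of each member in 3 week PBS mice in CPM per kilobase of exon on a log axis, with airway in orange (n = 11) and parenchyma in blue (n = 12). Sfrp5, Wnt16, Wnt10a and Fzd9 are near the lower edge in the parenchyma only.

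The first comparison asked which members differed between the tissues without exposure to HDM or smoke. At 3 weeks 18 of the 41 members tested were called, 14 higher in airway and 4 higher in parenchyma, where 11.9% of all genes were called, 10% and 1.91% in these directions. At 11 weeks, in PBS AIR mice, 19 of 43 were called, 15 higher in airway and 4 higher in parenchyma, against 16.1% of all genes (13.4% and 2.71%). The median log2FC of the members was 0.34 and 0.50, and that of all genes was -0.05 and -0.03.

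The inhibitors and the R-spondin receptors were the roles with the highest median log2FC in airway, at 2.17 and 1.23 (3 weeks). Lgr6, which binds R-spondins and marks a smooth muscle and epithelial subset in the lung, ranged from 27 to 78.5 CPM with a median of 44.1 in 3 week PBS airway. In parenchyma it ranged from 2.66 to 6.77 with a median of 4.69, and the groups did not overlap. The difference was a log2FC of 3.39 (SE 0.36, limma adjusted p = 6.3e-10).

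Sfrp4 had 2.74 to 16.7 CPM (median 5.89) in 3 week PBS airway and 0.144 to 0.643 CPM (median 0.47) in parenchyma, a log2FC of 3.85 (SE 0.45, limma adjusted p = 5.6e-09). Sfrp1 was higher in airway too, with medians of 29.6 and 7.01 CPM and a log2FC of 2.17 (SE 0.23). These 2 proteins bind Wnt ligands outside the cell, and neither overlapped between tissues. Frzb, a further protein of this kind known from cartilage, had a median of 2.42 CPM in airway and 0.117 CPM in parenchyma, and its log2FC was 3.77 (SE 0.52, limma adjusted p = 1.1e-07). Dkk2 followed the same order with a log2FC of 2.99 (SE 0.31).

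For Sfrp5 and Wnt16 every parenchyma library of PBS mice held at most 3 counts, so the fold is a lower bound. The airway was at least 16.6-fold higher for Sfrp5 at 3 weeks and at least 27.4-fold higher at 11 weeks, set against 3 counts per library. Wnt16 was at least 3.70-fold and 3.95-fold higher in airway. Airway levels of these genes were themselves spread out, from 0.0677 to 10.7 CPM for Sfrp5 at 3 weeks.

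Of the ligands, Wnt11 (median 18.5 against 8.74 CPM), Wnt7b, Wnt2b, Wnt9b and Wnt4 were called higher in 3 week airway. Wnt10b went the other way, with 2.29 to 15.5 CPM (median 10.1) in airway and 15.9 to 33.1 CPM (median 21.6) in parenchyma. Its log2FC was -1.66 (SE 0.22, limma adjusted p = 6e-08), and the tissues did not overlap. Wnt7a, Wnt3a and Wnt2 were the other ligands called higher in parenchyma. Wnt2, a ligand of lung mesenchyme, lay at a log2FC of -1.01 (SE 0.16) at 3 weeks and -1.10 (SE 0.19) at 11 weeks, and neither passed 2-fold by edgeR, at -0.90 and -0.94. The 3 week value was -0.94 without the libraries that stood apart. Fzd10 and Lgr5 were the remaining members called at 3 weeks.

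Cardiac muscle, adipose and fibroblast RNA was part of the airway samples. Summed cardiac markers had a median of 829 CPM in 3 week PBS airway and 41.1 CPM in parenchyma, adipose markers 223 and 15.4, and adventitial fibroblast markers 1597 and 357. Their part in the differences between tissues was not tested.

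HDM changed more members than any other exposure. At 3 weeks 16 of 41 members were called in airway, 2 up and 14 down, against 24% of all genes (12.1% up and 11.8% down). In parenchyma 21 of 41 were called, 5 up and 16 down, against 29.6% of all genes (14.5% up and 15.1% down). The members' median log2FC was -0.81 in airway and -0.85 in parenchyma, while that of all genes was -0.07 and -0.13. By adjusted p alone, 29 members fell and 3 rose in airway, where 40.5% and 34.1% of all genes did. In parenchyma 30 fell and 6 rose, where 44.3% and 33.4% of all genes did.

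Among the ligands, Wnt2 in 3 week airway went from 4.09 to 15.8 CPM (median 11.3) under PBS to 0.896 to 4.03 CPM (median 2.71) under HDM. In parenchyma it went from 12.2 to 24.6 CPM (median 20.5) to 2.57 to 5.99 CPM (median 4.41). HDM libraries lay below all PBS libraries in both tissues, with log2FC of -2.12 (SE 0.26, limma adjusted p = 1.4e-09) and -2.30 (SE 0.22, limma adjusted p = 9.2e-13).

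Wnt10b fell further, by a log2FC of -2.44 (SE 0.40) in airway and -2.98 (SE 0.30) in parenchyma. Its parenchyma median dropped from 21.6 to 3.05 CPM, without overlap. Wnt2b, a ligand close to Wnt2 in sequence, went from a median of 2.94 to 0.689 CPM in airway and from 1.24 to 0.312 CPM in parenchyma. Both changes were called, at -1.65 (SE 0.28) and -1.82 (SE 0.39), and in both the groups overlapped.

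Wnt11, which acts largely outside the beta-catenin branch, fell by a log2FC of -1.09 (SE 0.15) in airway and -1.16 (SE 0.22) in parenchyma. The airway value was -0.96 by edgeR and -0.85 without the libraries that stood apart, which ends the 2-fold call there. Wnt16 was called down in airway at -1.19 (SE 0.47), but the call was lost by edgeR (-0.85), by DESeq2 (-0.82), with no filter (-1.10) and without the libraries that stood apart (-1.09). Wnt7a was called down in both tissues and Wnt3a in parenchyma. Rising ligands were few, with Wnt6 called up in both tissues and Wnt9b in parenchyma, from a median of 0.0477 to 0.487 CPM (log2FC 2.45, SE 0.49, limma adjusted p = 2e-05).

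Of the 4 R-spondins, 3 fell by adjusted p in each tissue and 2 were called, and Rspo2 passed in neither (-0.28 in airway and 0.55 in parenchyma). Rspo1 was the member with the smallest adjusted p in 3 week parenchyma (log2FC -2.61, SE 0.20, limma adjusted p = 4.7e-15), where its mean went from 12.9 ± 2.43 (SD, n = 12) to 2.23 ± 0.473 CPM (SD, n = 10). Rspo4 went from a median of 1.26 to 0.435 CPM in airway and from 1.38 to 0.663 CPM in parenchyma, and HDM libraries lay below all PBS libraries in parenchyma. Lgr6 fell in airway from a median of 44.1 to 8.8 CPM (log2FC -2.36, SE 0.29), and in parenchyma Lgr4, Lgr5 and Lgr6 were all called down.

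The Frizzled receptors moved less. In airway Fzd10 was the one receptor called, up by 1.27 (SE 0.26). In parenchyma Fzd10 was called up at 1.92 (SE 0.32) and Fzd8 down at -1.02 (SE 0.12), and of the 9 receptors tested there 8 fell by adjusted p and 1 rose. Fzd10 is a low gene, at 0.508 ± 0.304 CPM (SD, n = 11) in PBS airway and 1.2 ± 0.359 CPM (SD, n = 10) in HDM airway.

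Inhibitors split. Notum, itself a target of the pathway, fell from 4.03 to 6.39 CPM (median 5.3) to 1.08 to 2.09 CPM (median 1.86) in airway, without overlap (log2FC -1.64, SE 0.15, limma adjusted p = 7.8e-13). In parenchyma the medians were 6.61 and 1.95 CPM (log2FC -1.82, SE 0.15). Wif1 fell in both tissues, by -1.84 (SE 0.19) and -2.09 (SE 0.24), and Dkk3 and Dkk2 were called down in airway.

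Sfrp1 rose in parenchyma, from 4.68 to 9.61 CPM (median 7.01) to 19.8 to 38.7 CPM (median 28.5). No HDM library overlapped with PBS there, and the log2FC was 1.95 (SE 0.24, limma adjusted p = 1.2e-09). In airway the medians were 29.6 and 43.9 CPM and the log2FC was 0.45 (SE 0.17). Frzb took opposite signs in the tissues, at -1.19 (SE 0.34) in airway and 1.35 (SE 0.61, limma adjusted p = 0.0425) in parenchyma. The airway value was -0.83 without the libraries that stood apart. Sfrp2 was called down in parenchyma.

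Both readouts fell by adjusted p in 3 week parenchyma, and Lef1 was called. With no filter on low counts the Lef1 value there was -1.0 and was not called. Axin2, which beta-catenin switches on in most tissues, had medians of 8.7 and 8.52 CPM in PBS and HDM airway and of 11.7 and 9.54 CPM in parenchyma. Only the parenchyma change passed the test by adjusted p, at -0.30. Lef1, a TCF/LEF factor also made by T cells, fell in parenchyma from 10 to 16.2 CPM (median 12.7) to 4.43 to 9.04 CPM (median 6.09), at -1.12 (SE 0.16, limma adjusted p = 3.3e-08). The summed T cell markers ran there from 132.6 to 195.8 CPM under PBS and from 409.4 to 651.1 CPM under HDM.

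Other markers moved with HDM at 3 weeks. In airway the median summed level went from 829 to 272 CPM for cardiac muscle, from 223 to 34.6 for adipose, from 1597 to 649 for adventitial fibroblast and from 64225 to 23514 for club cell markers, and from 566 to 4455 for macrophage markers. Of the 9 macrophage markers, 6 were called up and 1 down in airway, with a median log2FC of 1.73. In parenchyma alveolar fibroblast markers went from 4628 to 947 CPM. Their part in the changes of members was not tested.

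**Figure D2:**
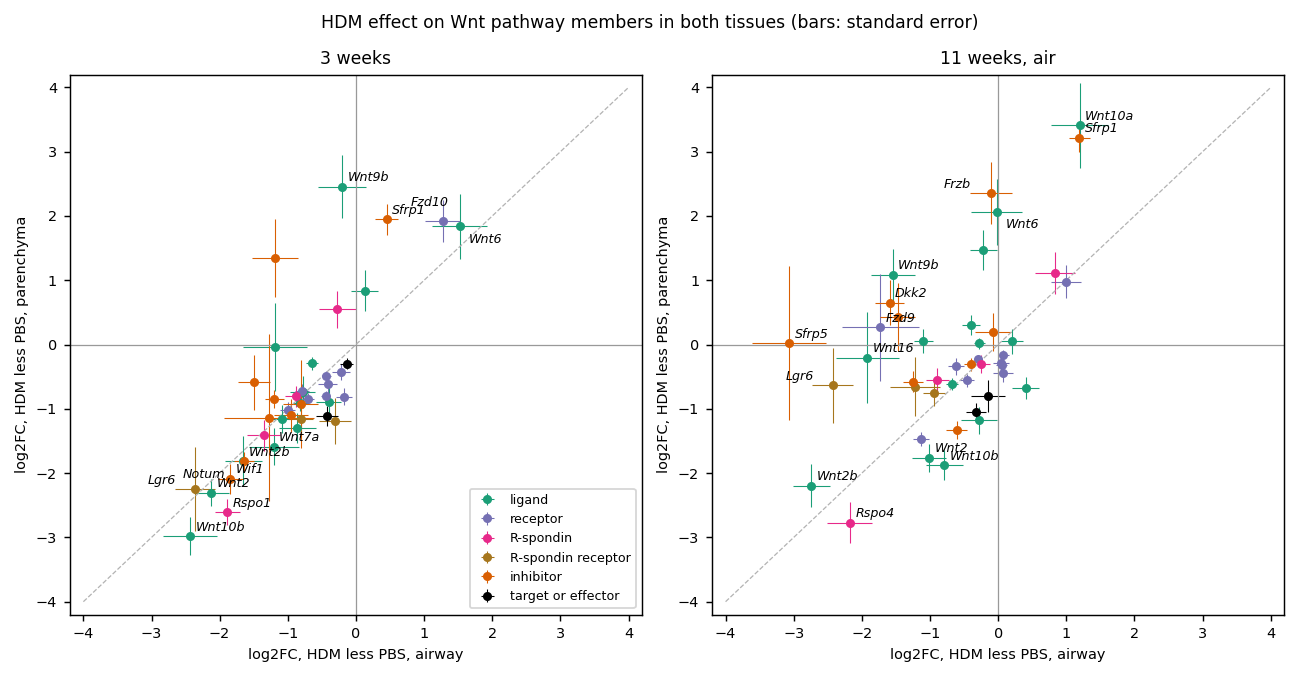
log2FC of HDM against PBS in airway (x axis) and parenchyma (y axis) for each member tested, at 3 weeks on the left and at 11 weeks in air on the right, with standard errors as bars and roles by colour. Most members lie in the lower left at 3 weeks, and Sfrp1, Frzb and Wnt9b lie above the dashed line of equal change at both times.

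The difference between tissues was tested as an interaction. At 3 weeks 6 of 41 members differed, against 17.3% of all genes. Sfrp1 (-1.50, SE 0.29), Wnt9b (-2.66, SE 0.60) and Frzb (-2.54, SE 0.70) had the lower HDM effect in airway, while Fzd6, Fzd3 and Lef1 (0.69, SE 0.23) had the higher one. At 11 weeks 19 of 43 differed, against 27.6% of all genes, 12 with the lower effect in airway, against 14.9%. Sfrp1 (-2.02, SE 0.27), Dkk2 (-2.25, SE 0.41) and Wnt9b (-2.63, SE 0.52) had the smallest adjusted p among them.

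At 11 weeks, in air, HDM called 16 of 43 members in airway, 2 up and 14 down, against 19.1% of all genes (10.6% up and 8.54% down). In parenchyma 15 were called, 7 up and 8 down, against 19.2% of all genes (13% up and 6.12% down). The members' median log2FC was -0.40 in airway and -0.30 in parenchyma, that of all genes 0.00 and 0.05. The heatmap of log2FC over 18 comparisons shows the mixed directions in parenchyma.

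**Figure D3:**
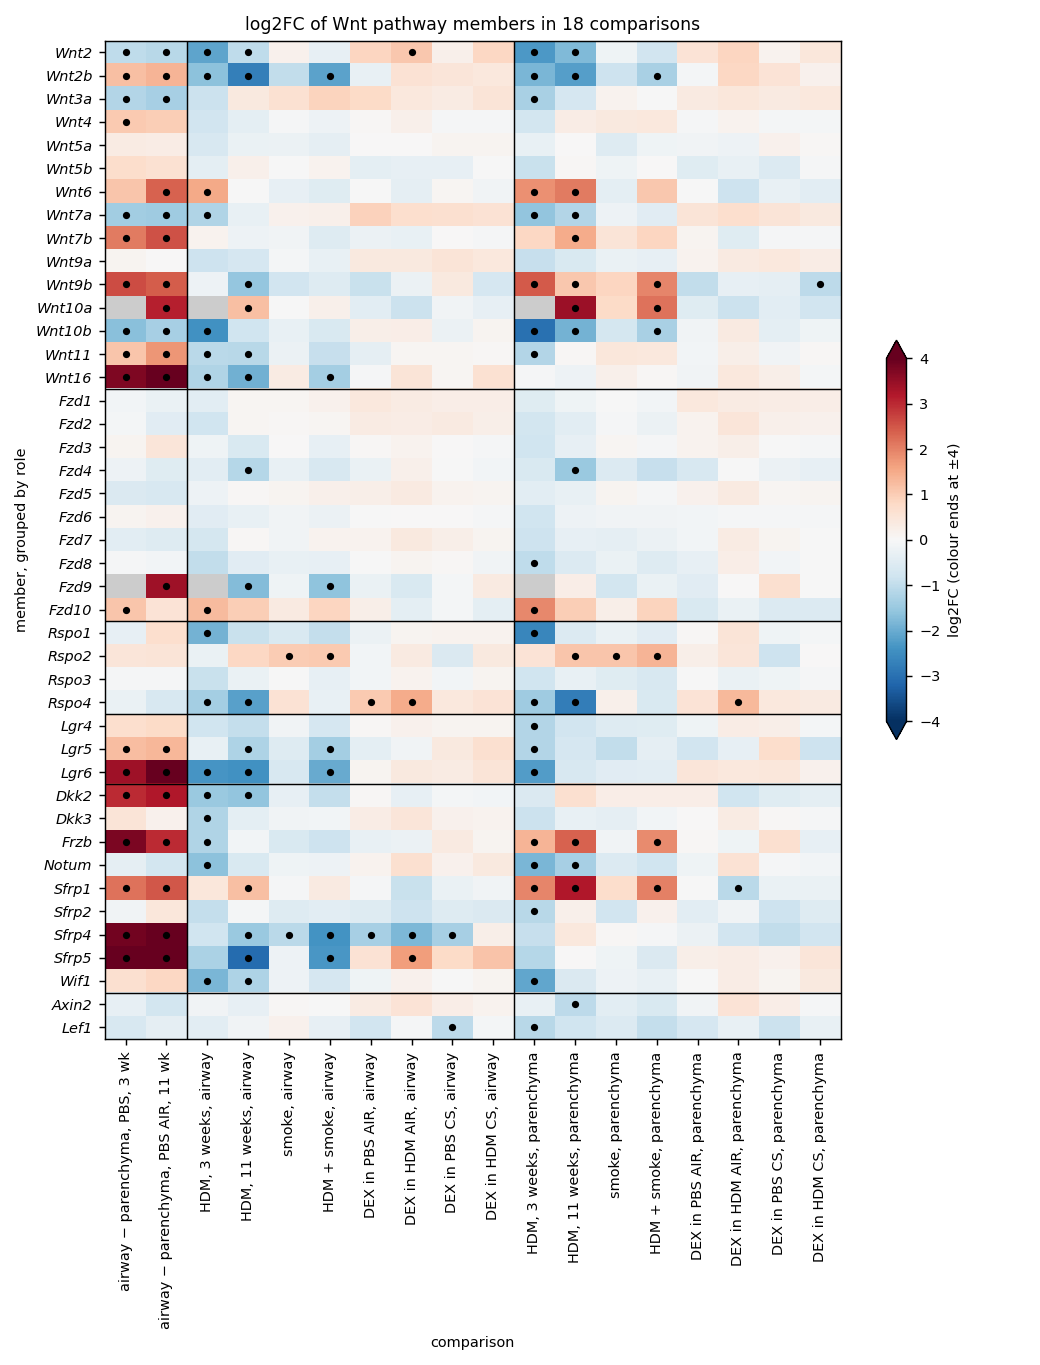
log2FC of each tested member (rows, grouped by role) in 18 comparisons (columns), with red for higher and blue for lower and colour ends at ±4. Black dots mark members called, grey cells members not tested at 3 weeks, and the 8 columns of DEX hold few dots.

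Sfrp1 was the member with the smallest adjusted p in 11 week parenchyma. Its level went from 4.47 to 7.58 CPM (median 5.11) in PBS AIR to 26.1 to 80.6 CPM (median 51.7) in HDM AIR, without overlap (log2FC 3.22, SE 0.23, limma adjusted p = 1.7e-27). In airway it went from a median of 27.6 to 70.4 CPM (log2FC 1.19, SE 0.15). Frzb rose in parenchyma from a median of 0.135 to 0.86 CPM (log2FC 2.36, SE 0.48) and lay at 1.05 CPM in both airway groups.

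Wnt10a and Wnt7b, ligands of the epithelium, and Wnt6 and Wnt9b were called up in parenchyma, and Wnt10a in airway. In PBS AIR parenchyma every library held at most 3 counts of Wnt10a, and HDM AIR was at least 3.13-fold higher. Wnt9b took opposite signs, at 1.09 (SE 0.40) in parenchyma and -1.55 (SE 0.32) in airway.

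The ligands Wnt2 and Wnt2b were again lower. Wnt2 had a median of 16.4 CPM in PBS AIR parenchyma and of 4.22 CPM in HDM AIR parenchyma (log2FC -1.76, SE 0.22), and 8.66 and 3.78 CPM in airway (log2FC -1.01, SE 0.25). Wnt2b fell by -2.74 (SE 0.27, limma adjusted p = 1.7e-17) in airway, from 4.17 to 18.7 CPM (median 7.88) to 0.802 to 1.78 CPM (median 1.26), without overlap. Wnt10b fell in parenchyma by -1.88 (SE 0.24).

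Rspo4 had the strongest fall of the R-spondins. It went from 0.466 to 1.62 CPM (median 0.985) to 0.067 to 0.515 CPM (median 0.2) in airway and from 1.14 to 2.14 CPM (median 1.57) to 0 to 0.748 CPM (median 0.265) in parenchyma. The log2FC were -2.18 (SE 0.33) and -2.77 (SE 0.32). Rspo2, by contrast, was called up in parenchyma at 1.11 (SE 0.33).

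Fzd4, a receptor of vascular endothelium, fell in both tissues, from 47 ± 10.2 to 20.7 ± 3.28 CPM (SD, n = 10 each) in airway and from 67.2 ± 12.2 to 23.8 ± 7.28 CPM (SD, n = 10 each) in parenchyma, without overlap. Of the 9 capillary endothelium markers, 9 fell by adjusted p and 7 were called down in parenchyma (median log2FC -1.25), and 6 fell and 2 were called down in airway (-0.52). Of all genes, 6.12% were called down in parenchyma and 8.54% in airway. The share of all genes that fell by adjusted p alone is not given here. The part of these markers in the fall of Fzd4 was not tested. Of the inhibitors, Sfrp5 (-3.06, SE 0.54), Sfrp4 (-1.47, SE 0.25), Dkk2 and Wif1 were called down in airway, and Notum in parenchyma (-1.33, SE 0.14). Lgr6 fell in airway from a median of 34.5 to 8 CPM, and Lgr5 and Wnt16 were called down there too. Wnt11 was called down in airway at -1.10, and at -0.94 without X109 and X90, which ends the call.

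Axin2 was called down in 11 week parenchyma. Its range went from 24.2 to 30.7 CPM (median 27.5) in PBS AIR to 9.52 to 17.3 CPM (median 12.2) in HDM AIR, without overlap (log2FC -1.05, SE 0.13, limma adjusted p = 7.2e-12). In airway the medians were 14.6 and 12.9 CPM (log2FC -0.33). The interaction between tissues was 0.72 (SE 0.19, limma adjusted p = 0.0028), with the larger fall in parenchyma. Lef1 also fell by adjusted p under HDM in 11 week AIR parenchyma, and was not called there.

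**Figure D4:**
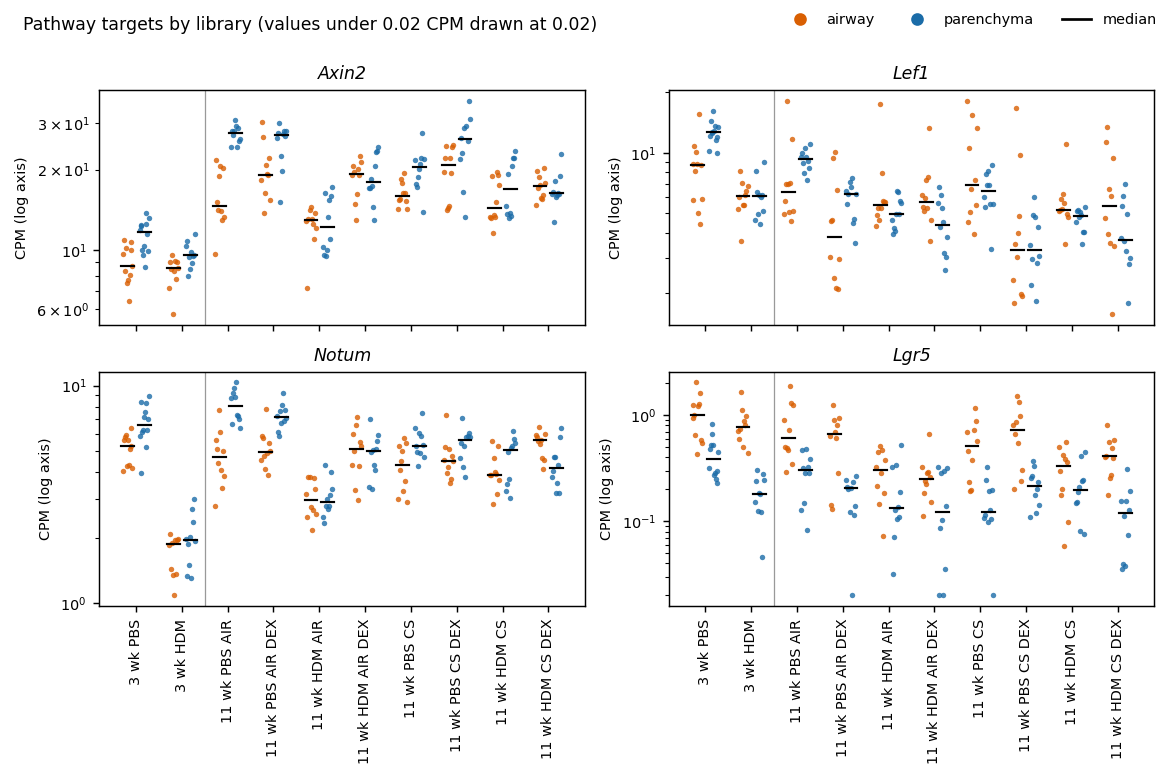
Level of Axin2, Lef1, Notum and Lgr5 in each library, in CPM on log axes, for airway (orange) and parenchyma (blue) in each exposure, with medians as black bars. Axin2 and Notum in parenchyma are lower in 11 week HDM AIR than in PBS AIR, and Lef1 medians are lower in the PBS AIR DEX than in the PBS AIR group.

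Markers moved at 11 weeks as well, with median sums in airway of 1720 and 288 CPM for cardiac muscle and of 1257 and 469 CPM for airway smooth muscle in PBS AIR and HDM AIR. In parenchyma alveolar fibroblast markers had medians of 4789 and 1558 CPM. Their part in the changes was not tested.

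The HDM effect was compared between the weeks by an interaction in 1 fit of all libraries. In airway 18 of 43 members differed, against 28.4% of all genes, and in parenchyma 16, against 42.4%. Wnt10b was less reduced at 11 weeks in both, by 1.59 (SE 0.45) and 0.98 (SE 0.37), Wnt2b was more reduced in airway (-1.17, SE 0.40) and Rspo4 in parenchyma (-1.48, SE 0.40). Sfrp1 had the higher HDM effect at 11 weeks in both tissues (0.68, SE 0.22 in airway and 1.14, SE 0.32 in parenchyma). The 3 week and 11 week mice differed in dosing as well as in time, and these cannot be told apart.

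Smoke alone changed few members. In airway 2 of 43 were called, against 2.78% of all genes, and in parenchyma 1, against 5.33%. Rspo2 rose in both, from a median of 0.44 to 0.719 CPM in airway (log2FC 1.02, SE 0.29, limma adjusted p = 0.0071) and from 0.317 to 0.636 CPM in parenchyma (log2FC 1.11, SE 0.33, limma adjusted p = 0.00392). The groups overlapped in both. Sfrp4 fell in airway from a median of 4.84 to 2.6 CPM (log2FC -1.08, SE 0.24). By adjusted p, 13 members fell and 4 rose in parenchyma, where 18.2% and 17.7% of all genes did, all but Rspo2 by less than 2-fold. Without the libraries that stood apart, among them X126 of PBS AIR parenchyma, Lgr5 was also called down in parenchyma, at -1.15.

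The smoke effect differed between tissues for 2 of 43 members, Wnt11 and Wnt9b, against 3.73% of all genes. Neither call held in 1 fit of all libraries.

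HDM with smoke, against PBS with air, called 8 of 43 members in airway, 1 up and 7 down, against 13.1% of all genes (7.33% up and 5.82% down). In parenchyma it called 7, 5 up and 2 down, against 11.1% (8.67% up and 2.47% down). In airway Wnt2b (-2.14, SE 0.23), Sfrp4 (-2.38, SE 0.28), Lgr6 (-2.02, SE 0.27), Sfrp5 (-2.34, SE 0.47), Lgr5, Wnt16 and Fzd9 fell and Rspo2 rose (1.03, SE 0.28). In parenchyma Sfrp1 (2.01, SE 0.23), Wnt9b, Rspo2, Frzb (1.89, SE 0.50) and Wnt10a rose and Wnt10b (-1.30, SE 0.21) and Wnt2b (-1.29, SE 0.29) fell. The comparison shares its PBS AIR libraries with that of HDM alone.

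Whether smoke altered the HDM effect was tested by an interaction. In airway 11 of 43 members differed (19.1% of all genes), and in parenchyma 15 (36% of all genes). The difference was positive, a smaller fall or a larger rise under smoke, for 10 of the 11 and 13 of the 15, and such differences made up 7.72% and 17.3% of all genes. In parenchyma Rspo4 (1.95, SE 0.39), Wnt2b (1.74, SE 0.47), Wnt10b (1.29, SE 0.33), Wnt2 (1.17, SE 0.29), Notum (1.09, SE 0.20), Axin2 (0.86, SE 0.19) and Fzd4 (1.11, SE 0.16) were of this kind. Sfrp1 went the other way in parenchyma (-1.91, SE 0.31) and airway (-0.77, SE 0.22), its HDM CS median of 21.1 CPM in parenchyma standing against 51.7 CPM in HDM AIR.

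**Figure D5:**
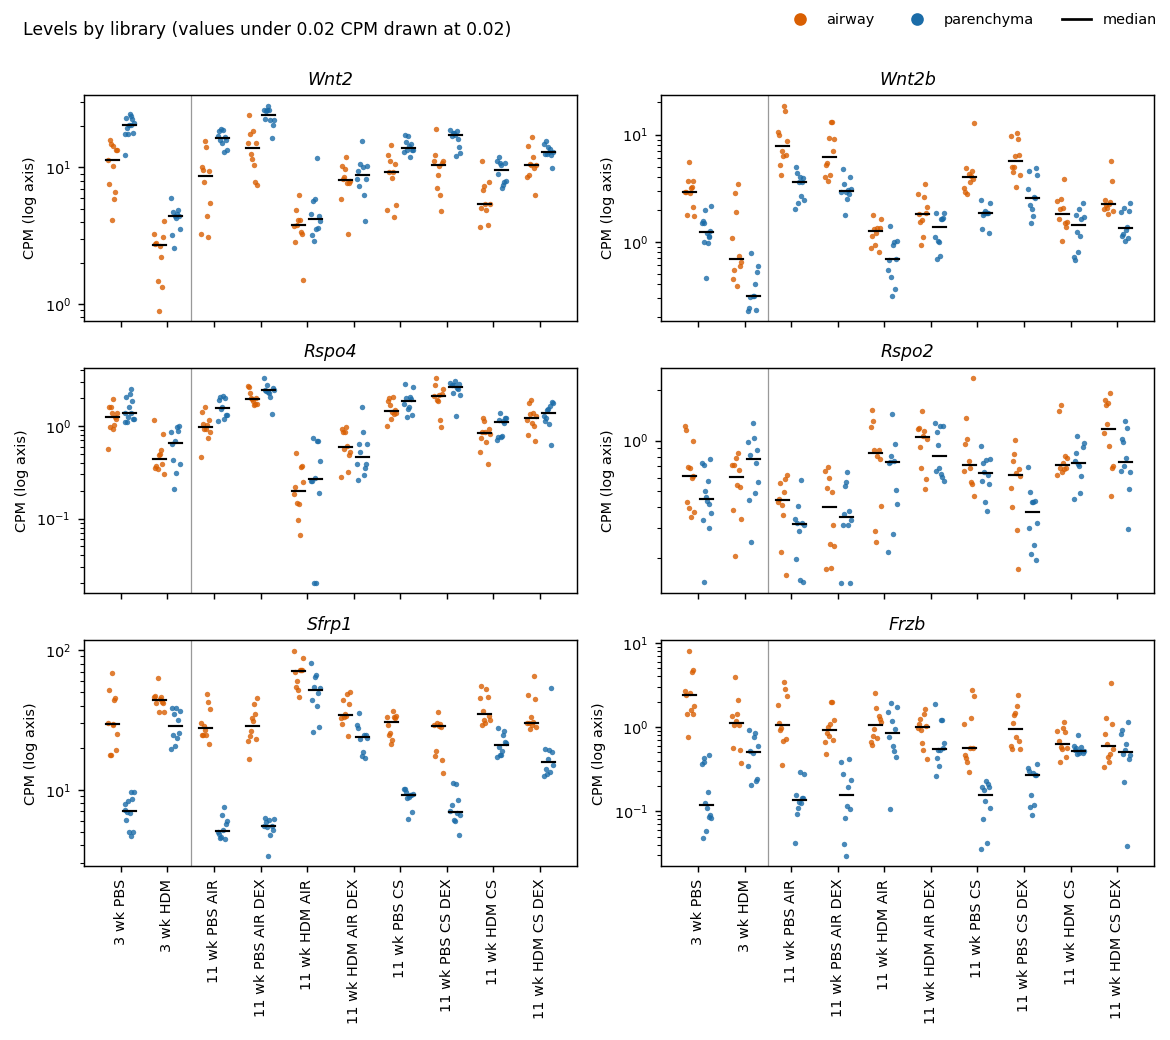
Level of Wnt2, Wnt2b, Rspo4, Rspo2, Sfrp1 and Frzb in each library, in CPM on log axes with values under 0.02 drawn at 0.02, for airway (orange) and parenchyma (blue) in each exposure, with medians as black bars. Rspo4 medians in HDM AIR (0.2 and 0.265 CPM) lie below those of every other 11 week group.

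Dexamethasone was compared with none within each of the 4 exposures. In PBS AIR airway 2 of 43 members were called, against 2.41% of all genes. Rspo4 rose from 0.466 to 1.62 CPM (median 0.985) to 1.69 to 2.71 CPM (median 1.98), without overlap (log2FC 1.06, SE 0.22, limma adjusted p = 0.00014). Sfrp4 fell from a median of 4.84 to 2.25 CPM (log2FC -1.33, SE 0.24). In PBS AIR parenchyma no member was called in limma (3.16% of all genes), 7 passed by adjusted p (22.6% of all genes) and 11 had an unadjusted p under 0.05, and edgeR and DESeq2 also called 0. Rspo4 (0.56), Wnt2 (0.53), Wnt7a and Fzd1 rose, and Lef1 (-0.68), Fzd8 and Fzd4 fell. The dexamethasone effect in PBS AIR differed between tissues for 0 of 43 members in limma, edgeR and DESeq2 (0.279% of all genes), with 6 at an unadjusted p under 0.05 in limma.

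In HDM AIR, dexamethasone called 4 of 43 members in airway (5.86% of all genes) and 2 in parenchyma (6.02%). In airway Rspo4 rose from a median of 0.2 to 0.59 CPM (log2FC 1.48, SE 0.35), Wnt2 from 3.78 to 8.08 CPM (log2FC 1.07, SE 0.25) and Sfrp5 from 0.31 to 0.884 CPM. The Sfrp5 value was 1.67 (SE 0.60, limma adjusted p = 0.0243) and lost its call without X109 and X90, at 1.48. Sfrp4 fell from a median of 2.17 to 0.595 CPM (log2FC -1.80, SE 0.38). All 4 overlapped between groups.

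In HDM AIR parenchyma Sfrp1 fell from 26.1 to 80.6 CPM (median 51.7) to 16.9 to 35.7 CPM (median 24), at -1.07 (SE 0.16, limma adjusted p = 3.8e-08). Rspo4 rose at 1.28 (SE 0.36), and at 0.77 by edgeR, which ends the 2-fold call. By adjusted p, 14 members rose and 1 fell, against 12.2% and 16.2% of all genes, among them Axin2 (0.55), Notum (0.59) and Wnt2 (0.86).

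In PBS CS airway dexamethasone called Sfrp4 (-1.32, SE 0.32) and Lef1 (-1.06, SE 0.26), both down, where 2.47% of all genes were called and 2.29% were called down. Lef1 fell from a median of 6.95 to 3.28 CPM, and its value was -0.85 by edgeR. The summed T cell markers ran from 102.2 to 365.5 CPM without dexamethasone and from 35.1 to 336.4 CPM with it, and of the 10 markers all fell by adjusted p and 9 were called down, with a median log2FC of -1.46. That T cells took part in it was not tested. In PBS CS parenchyma (2.75%) no member was called in limma, with 4 past the adjusted p (16.9% of all genes) and 12 at an unadjusted p under 0.05, and edgeR and DESeq2 called 0. In HDM CS airway (2.04%) none was called in limma, with 5 past the adjusted p (9.3% of all genes) and 9 at an unadjusted p under 0.05, and edgeR and DESeq2 called 0. In HDM CS parenchyma (2.03%) Wnt9b was called down at -1.06 (SE 0.33, limma adjusted p = 0.0313), and it was not called by DESeq2.

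Other genes of the pathway were taken from a list of 66, of which 62 were tested. HDM called 4 up and 11 down in 3 week airway, 6 up and 13 down in 3 week parenchyma, 4 up and 3 down in 11 week airway and 6 up and 7 down in 11 week parenchyma. These were 24.2%, 30.6%, 11.3% and 21% of the genes tested, where 24%, 29.6%, 19.1% and 19.2% of all genes were called. Of the 16 intracellular beta-catenin pathway genes 0 to 3 were called in these comparisons. Draxin, an antagonist, was called in the most comparisons, up under HDM in 3 week airway (2.88, SE 0.30) and parenchyma (3.67, SE 0.35) and down under dexamethasone in HDM AIR airway (-1.96, SE 0.23). Cd44, a target gene and a leukocyte surface protein, and Celsr3, of the planar polarity branch, were called up under HDM in both tissues and at both times. Reck, a co-receptor for Wnt7 ligands, fell by -1.96 (SE 0.10) and -2.35 (SE 0.10) at 3 weeks, and Porcn, which adds the lipid to Wnt ligands, by -1.27 (SE 0.12) and -1.20 (SE 0.14). Sp5, a direct target gene, was called up by smoke in airway (1.43, SE 0.43) and parenchyma (1.39, SE 0.34).

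Of the 49 members, 33 were called in at least 1 of the 18 comparisons of 2 groups and 16 in none, 10 of these after being tested.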

How the data were processed

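RNA-seq of 203 libraries of mouse airway and parenchyma was used. Per the submitters' processing notes, tools included bcl2fastq 2.20.0.422, STAR 2.5.1b, RSEM 1.2.31 and kallisto 0.44.0, with build mm10. The authors deposited 1 unscaled table of estimated counts, with a row per gene; which quantifier made it, and whether strand was used, is not given in the sources used here. Fractions made up 20.3% of its values above 0, and each value was rounded. No pair of libraries of a group were near-identical. Symbols came from GENCODE M21, matched on identifiers without version (42462 of 43346 had one).

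Genes reaching the CPM equivalent of 10 counts in at least 9 libraries were tested with limma 3.58.1 (voom, TMM from edgeR 4.0.16, R 4.3.3) with Benjamini-Hochberg adjustment, as 17377 genes and 43 libraries at 3 weeks, 18250 and 160 at 11 weeks, and 18528 and 203 for interactions over weeks. Nothing in the labels says that libraries of a group come from separate mice, so p-values measure the spread between libraries. Scripts were tested on simulated counts. Alternatives were edgeR, DESeq2 1.42.0, DESeq2 size factors, a CPM of at least 10, no filter, all libraries in 1 fit, and leaving out libraries.

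Members called were named in full up to 10 per comparison and otherwise as the 10 with the smallest adjusted p, the others without full statistics. The tissues at 11 weeks are an exception and are given mainly by counts. The 12 members called most often are described in depth. Axin2, Lef1, Notum and Frzb are described as well, in part of the comparisons, and Lgr5 mainly by its calls. Up to 6 other pathway genes are named. The members and lists were chosen with earlier results of these data known. Rspo2 at 11 weeks of HDM was singled out after its values were seen.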

Additional observations from a re-analysis of the deposited data

Results flagged for a closer look

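A library far from the others of its group by Dixon's criterion was found in 40 of 287 gene and group pairs examined. The genes were the members described in depth and Axin2, Lef1, Notum and Lgr5. The 3 week PBS groups, with 11 airway and 12 parenchyma libraries, were not examined. The criterion's rate of about 1 in 20 by chance holds for normally distributed values. Levels in CPM need not be so distributed, and most of the libraries named were the highest of their group. Whether 40 is more than chance gives therefore cannot be decided here. The values below are levels in CPM.

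Axin2 was lowest in X29 (11 week HDM AIR airway, 7.21). Frzb was highest in X63 (3 week HDM airway, 3.89), highest in X98 (11 week HDM CS parenchyma, 0.803) and highest in X159 (11 week HDM CS DEX airway, 3.33). Lef1 was highest in X65 (11 week PBS AIR airway, 18.2), highest in X89 (11 week HDM AIR airway, 17.5), highest in X151 (11 week HDM AIR DEX airway, 13.3) and highest in X157 (11 week HDM CS airway, 11.0). Lgr5 was highest in X151 (11 week HDM AIR DEX airway, 0.67). Lgr6 was highest in X173 (11 week PBS CS parenchyma, 3.16) and highest in X96 (11 week PBS CS DEX parenchyma, 4.63). Notum was highest in X107 (11 week PBS AIR DEX airway, 7.8) and highest in X55 (11 week PBS CS DEX airway, 7.29). Rspo4 was highest in X92 (11 week HDM AIR DEX parenchyma, 1.61) and lowest in X116 (11 week PBS CS DEX parenchyma, 1.28). Sfrp1 was highest in X63 (3 week HDM airway, 63.3) and highest in X160 (11 week HDM CS DEX parenchyma, 53.4). Sfrp4 was highest in X70 (11 week HDM AIR parenchyma, 2.21). Sfrp5 was highest in X125 (11 week PBS AIR airway, 10.0), highest in X126 (11 week PBS AIR parenchyma, 0.0829), highest in X70 (11 week HDM AIR parenchyma, 0.17), highest in X134 (11 week PBS CS parenchyma, 0.0847) and highest in X39 (11 week HDM CS DEX airway, 4.09). Wnt10b was highest in X55 (11 week PBS CS DEX airway, 7.95). Wnt11 was lowest in X44 (3 week HDM parenchyma, 2.08), highest in X5 (11 week PBS AIR airway, 32.5) and highest in X90 (11 week HDM AIR parenchyma, 12.5). Wnt16 was highest in X63 (3 week HDM airway, 0.854), highest in X64 (3 week HDM parenchyma, 0.125), highest in X28 (11 week PBS AIR DEX parenchyma, 0.0696), highest in X190 (11 week HDM AIR parenchyma, 0.035), highest in X194 (11 week PBS CS parenchyma, 0.0738) and highest in X98 (11 week HDM CS parenchyma, 0.0803). Wnt2 was highest in X130 (11 week HDM AIR parenchyma, 11.6). Wnt2b was highest in X193 (11 week PBS CS airway, 12.9), highest in X137 (11 week HDM CS airway, 3.86) and highest in X159 (11 week HDM CS DEX airway, 5.69). Wnt9b was highest in X133 (11 week PBS CS airway, 1.74), highest in X96 (11 week PBS CS DEX parenchyma, 0.792) and highest in X40 (11 week HDM CS DEX parenchyma, 1.1). Where the parenchyma libraries of Sfrp5 or Wnt16 are named, the group was at or near 3 counts per library.

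Differences of an effect between tissues or times were examined for the members described in depth and for Axin2, Lef1, Notum and Lgr5. Those described in depth were picked by how often they were called in these data. Of all genes, the HDM effect differed between tissues for 17.3% at 3 weeks and 27.6% at 11 weeks. It differed between weeks for 28.4% in airway and 42.4% in parenchyma, and the smoke effect between tissues for 3.73%. Among the genes examined, differences passed the interaction test in limma in 27 cases, given here as the difference in log2FC. For the HDM effect in airway less HDM effect in parenchyma, 3 weeks, these were Wnt9b (-2.66), Frzb (-2.54), Lef1 (0.69) and Sfrp1 (-1.5). For the HDM effect in airway less HDM effect in parenchyma, 11 weeks, these were Axin2 (0.72), Wnt11 (-1.15), Wnt9b (-2.63), Sfrp4 (-1.9), Wnt10b (1.09), Frzb (-2.46), Sfrp1 (-2.02), Lgr6 (-1.8) and Notum (0.72). For the smoke effect in airway less smoke effect in parenchyma, these were Wnt11 (-0.69) and Wnt9b (-1.6). For the HDM effect at 11 weeks less that at 3 weeks, airway, these were Wnt2 (1.05), Wnt9b (-1.41), Wnt10b (1.59), Wnt2b (-1.17), Sfrp1 (0.68) and Notum (0.97). For the HDM effect at 11 weeks less that at 3 weeks, parenchyma, these were Axin2 (-0.87), Wnt11 (1.09), Wnt9b (-1.49), Wnt10b (0.98), Sfrp1 (1.14) and Rspo4 (-1.48).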

How the results depend on the processing

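Of the counts of members called under an alternative, 27 were lower and 3 higher by over 1.5 times and the others were not. Single members were followed only for those described in depth and for Axin2, Lef1, Notum and Lgr5. Of their values, 2265 stayed on their side of the threshold, 29 lost the call and 8 gained it, with no change of sign among called values. Those that stayed include values called neither in the main fit nor under the alternative. A value whose gene was not tested under an alternative was not counted as lost. The other members were not followed singly. A CPM of at least 10 in 9 libraries tests fewer members by its construction. The number tested and the share of all genes called under it are not given here. Its counts therefore do not show whether the share of members called changed. Under it the counts were 7 for the tissues at 3 weeks and 8 at 11 weeks, 8 and 10 for HDM at 3 weeks in airway and parenchyma, 6 and 7 at 11 weeks, 0 and 0 for smoke, and 1 and 2 for HDM with smoke. For dexamethasone they were 0 in PBS AIR airway, 1 in HDM AIR airway and parenchyma, 1 in PBS CS airway and 0 in HDM CS parenchyma. For interactions they were 2 and 10 for HDM between tissues at 3 and 11 weeks, 0 for smoke between tissues, 11 for HDM between weeks in airway and 7 for HDM by smoke in airway. For dexamethasone in PBS CS airway, edgeR and DESeq2 each called 1. For dexamethasone in HDM CS parenchyma, DESeq2 and no filter each called 0. For smoke in parenchyma, no filter and leaving out the libraries that stood apart each called 2. So did leaving out those in the range of the other tissue together with X126, the only library of that comparison left out there. For smoke between tissues, DESeq2 size factors called 1, and no filter and all libraries in 1 fit each called 0; the cause was not tested.

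Libraries were taken to stand apart where their marker score was nearer to the other tissue's median of the same exposure, or their distance on the first principal components was over 5 times the group's median. This rule and the fit without X109 and X90 were chosen after seeing the data. The planned rule, a score in the range of the other tissue, marked 11 libraries, X109 not among them. Among the 11 were all 10 of 11 week HDM AIR parenchyma, so that comparisons with that group could not be made. The fit without these libraries also left out X126, for its distance on the principal components. Of the 17 counts this fit did give, 16 stayed within 1.5 times. Comparisons that hold none of the libraries left out could change only through the shared fit. No paired analysis was possible because no label says which libraries came from 1 mouse, and tests between tissues treat libraries as independent. Members under 1 CPM rest on few counts, and their fold changes are the least precise.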
